A study of Arabidopsis thaliana with 6 samples.

Results

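APS3, SIR and BCAT4 are Arabidopsis genes of sulfur metabolism, and their transcripts were followed across seedlings from 3 growth conditions: darkness, darkness with hydrogen peroxide (H2O2), and light. They were chosen by name, with earlier results of these data known. Each is measured by 1 probe set that names no other gene (245254_at for APS3, 250846_at for SIR and 257021_at for BCAT4). They are 3 of the 13356 genes that have a probe set of their own in the table used here. Only such genes are called measured below. A further 8730 tested probe sets carry no gene name here, so a gene not called measured may still be on the array. The loci are AT4G14680 for APS3, AT5G04590 for SIR and AT3G19710 for BCAT4.

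Plants take up sulfur as sulfate. ATP sulfurylase, the enzyme that APS3 encodes, activates sulfate to adenosine phosphosulfate. One branch of the pathway reduces this to sulfite and then, through the sulfite reductase encoded by SIR, to sulfide, which is built into cysteine and later into methionine and glutathione. The other branch makes an active sulfate donor that completes the glucosinolates, sulfur-rich defence compounds of Arabidopsis and its relatives. BCAT4 encodes the aminotransferase that starts the lengthening of methionine, the step that commits it to aliphatic glucosinolates.

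Whole seedlings of the wild-type accession Col-0 were grown on MS medium at reduced strength and harvested at 7 days, with 2 biological replicates and so 2 Affymetrix ATH1 arrays for each of the 3 conditions. The dark group was the control. The H2O2 group was also kept in the dark and received 5 mM H2O2, and the light group had a day of 16 h light and 8 h dark. Culture in darkness was chosen by the submitters to keep the seedlings' own H2O2 low. No gene was altered in any group, the sources used here do not say when H2O2 was added, and light and dark seedlings of the same age differ in many ways besides these pathways.

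Values are log2 expression levels, so a difference of 1 is a 2-fold change. Replicate arrays correlated at 0.993 to 0.995 across probe sets, and array medians lay between 5.93 and 6.07. The bacterial and phage hybridisation controls, added during array processing, averaged 8.89 to 10.45 per array. All 7 measured green tissue markers of 9 listed were higher in light than in the dark by the test given below, beside 23.0% of all probe sets. The log2 of the summed level of these markers was 13.36 to 13.45 in the dark, 13.56 to 13.72 with H2O2 and 15.71 to 15.74 in light. The 3 measured of 6 root and root hair genes were EXPA7, EXPA18 and AT4G26010. The log2 of their sum was 7.89 to 8.41 in the dark, 6.53 to 6.61 with H2O2 and 9.10 to 9.64 in light. With H2O2 the means of EXPA7 and EXPA18 were 3.96 and 4.23, under the dim level of 5.16 explained below. The H2O2 sum thus rests mostly on AT4G26010, at 5.92. For 3 of 7 genes of seed reserves and oil bodies the log2 of the sum was 10.76 to 11.86, 11.23 to 11.60 and 6.57 to 7.25 in the same order of groups. Of these 3, ICL had the highest means, at 11.22, 11.25 and 6.35. OLEO3 had 7.02, 7.56 and 4.42, and PAP85 3.54, 6.30 and 3.89. Both were higher with H2O2 than in the dark, and PAP85 was not lower in light. The single measured gene of 5 for epidermis and guard cells had 3.34 to 3.76, 3.88 to 4.24 and 5.41 to 5.66. None of 5 for vasculature had a named probe set of its own. These tissue and reserve markers move with the conditions compared below, and their part in the results was not tested. In whole seedlings more cells of a kind cannot be told apart from more transcript per cell.

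APS3 had a level of 6.19 and 6.35 in the 2 dark replicates, 6.03 and 5.78 with H2O2, and 7.81 and 7.94 in light. Both light arrays lay above every other array, and both H2O2 arrays lay below both dark arrays by a margin of 0.16 between the nearest. The mean of the dark group was 6.27 ± 0.11 (SD, n = 2), that of the H2O2 group 5.90 ± 0.18 and that of the light group 7.87 ± 0.090, all above 5.16, the level under which 40% of probe sets lie by their mean over all arrays and below which levels are called dim here.

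SIR had a level of 8.83 and 8.97 in the dark replicates, 9.30 and 9.23 with H2O2, and 9.72 and 9.78 in light. The groups did not overlap and stood in the order dark, H2O2, light, although the difference between H2O2 and dark was not called by the test given below. For 2 arrays against 2, full separation has an exact 2-sided permutation p of 0.333. Separation of groups is therefore given as description only, here and for the other genes. The means were 8.90 ± 0.098 (SD, n = 2), 9.27 ± 0.051 and 9.75 ± 0.038 in that order. SIR thus spanned the narrowest range of levels of the 3 genes.

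BCAT4 had a level of 7.02 and 7.92 in the dark replicates, 7.92 and 7.24 with H2O2, and 11.10 and 11.14 in light. Dark and H2O2 arrays overlapped, while both light arrays stood more than 3 log2 units above all 4 of them. The dark mean was 7.47 ± 0.63 (SD, n = 2), the H2O2 mean 7.58 ± 0.48 and the light mean 11.12 ± 0.031. The replicates lay 0.90 apart in the dark and 0.68 apart with H2O2, against 0.044 in light, and only 0.721% and 1.11% of all probe sets had replicates farther apart in the dark and with H2O2.

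**Figure D1:**
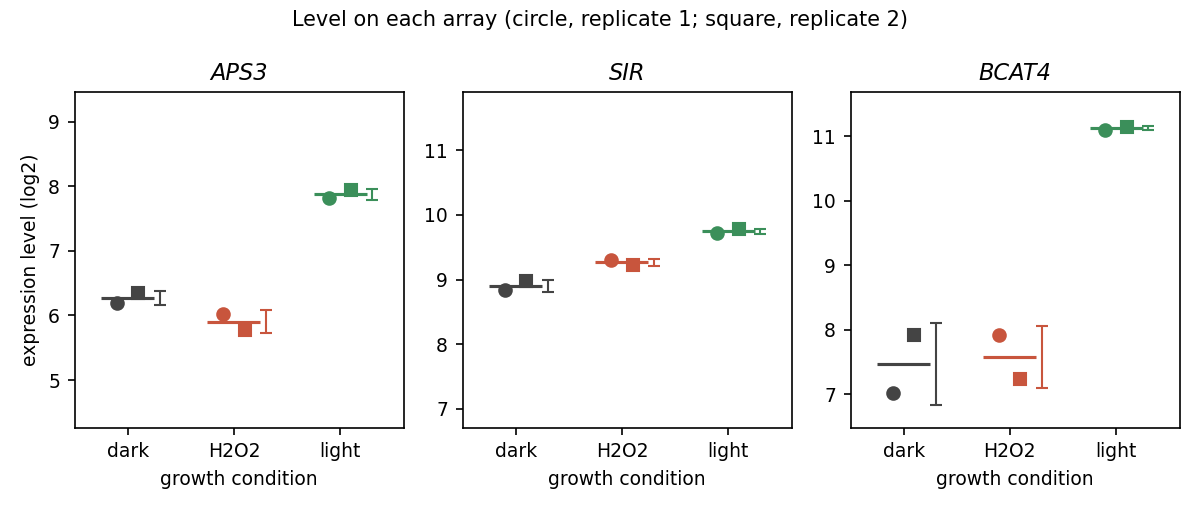
Level of APS3, SIR and BCAT4 on each of the 6 arrays (log2, y axis, same span in each panel) by growth condition (x axis). Circles are replicate 1 and squares replicate 2, horizontal lines are group means and bars beside them are ± 1 SD of 2 arrays. Light arrays are the highest in each panel, H2O2 arrays lie below dark ones for APS3 and above them for SIR, and dark and H2O2 arrays of BCAT4 overlap, at 7.02 to 7.92.

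Light was set against dark to see how the 3 transcripts differ between seedlings grown with and without light. All 3 genes were called higher in light, where 23.0% of all 22746 tested probe sets were called higher, 25.0% lower and 48.0% either way. A call is a Benjamini-Hochberg adjusted p under 0.05 over all tested probe sets in limma, fitted to all 6 arrays. That share of calls is high, so the sizes below are read with it.

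BCAT4 was higher by 3.66 ± 0.30 log2 units (SE from limma, 2 arrays a group, adjusted p = 9.73e-06), which is 12.6-fold with a 95% interval of 7.92 to 20.1. This put it in place 169 from the top among all probe sets, and 1.02% had a larger difference in either direction. APS3 was higher by 1.61 ± 0.15 (adjusted p = 1.93e-05), or 3.05-fold with an interval of 2.42 to 3.83. SIR was higher by 0.85 ± 0.13 (adjusted p = 0.000528), or 1.80-fold with an interval of 1.47 to 2.20. Differences larger than that of APS3 were found for 11.2% of probe sets, and larger than that of SIR for 28.1%. The intervals of the 3 genes do not overlap, although the differences between genes were not tested.

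H2O2 was set against dark to see whether added H2O2, in the absence of light, goes with a change in these transcripts. None of the 3 genes was called by limma, where 20.5% of all probe sets were called, 12.3% higher and 8.18% lower. At an unadjusted p under 0.05, 2 of the 3 passed, beside 33.4% of all probe sets. For APS3 the difference was -0.36 ± 0.15 (SE, adjusted p = 0.115), and its 95% interval ran from -0.69 to -0.034. For SIR it was 0.36 ± 0.13 (adjusted p = 0.0815), from 0.070 to 0.66. Both intervals lie on 1 side of 0 before adjustment for the number of probe sets, and in opposite directions. For BCAT4 it was 0.11 ± 0.30 (adjusted p = 0.84), and the interval from -0.56 to 0.78 leaves room for a change of up to 1.72-fold upward.

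The sizes with H2O2 depended on how the arrays were scaled. With each array centred on the median of its probe sets APS3 had -0.48 and was called lower (adjusted p = 0.0446), and with quantile normalization -0.49 (adjusted p = 0.0455), while centring on the hybridisation controls turned the difference to 0.23 (adjusted p = 0.692). Centring on these controls moved the median of all probe sets from -0.022 to 0.57, so APS3 stayed below that median. It also gave each gene named from the lists the same SE of 0.44 in every comparison. As deposited, the SE was 0.15 for APS3 and 0.13 for SIR. A call gained or ended under this centring, here and below, therefore does not reflect the gene's own spread. SIR had 0.24 with median centring, 0.41 with quantile normalization and 0.95 with centring on these controls, not called in any of them. Without H2O2 replicate 2 APS3 had -0.24 (adjusted p = 0.439). BCAT4 turned to -0.0084 with median centring, to -0.34 without dark replicate 1 and to -0.23 without H2O2 replicate 1.

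Light was set against H2O2 to compare lit seedlings with dark ones given H2O2. All 3 genes were called higher in light, where 17.4% of all probe sets were called higher, 22.0% lower and 39.5% either way. BCAT4 was higher by 3.54 ± 0.30 (SE, limma adjusted p = 1.64e-05), which is 11.7-fold, and APS3 by 1.97 ± 0.15 (adjusted p = 7.97e-06), which is 3.92-fold. SIR was higher by 0.48 ± 0.13 (adjusted p = 0.0152), which is 1.40-fold with a 95% interval of 1.14 to 1.71. The call of SIR ended without H2O2 replicate 2 (adjusted p = 0.0839), without light replicate 2 (0.0635) and with centring on the hybridisation controls (0.32). The comparisons share the dark, H2O2 or light arrays with each other, so a high or low array enters 2 of them.

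The order of levels was H2O2, dark and light for APS3 and dark, H2O2 and light for SIR and BCAT4. Between the first and second no call was made for any of the 3 genes, and light was called higher than both. A missing call does not show that 2 groups are equal. The intervals of APS3 and SIR between H2O2 and dark lie off 0 before adjustment. With median centring or quantile normalization APS3 was called there, and the SIR call between light and H2O2 ended in the settings given above.

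**Figure D2:**
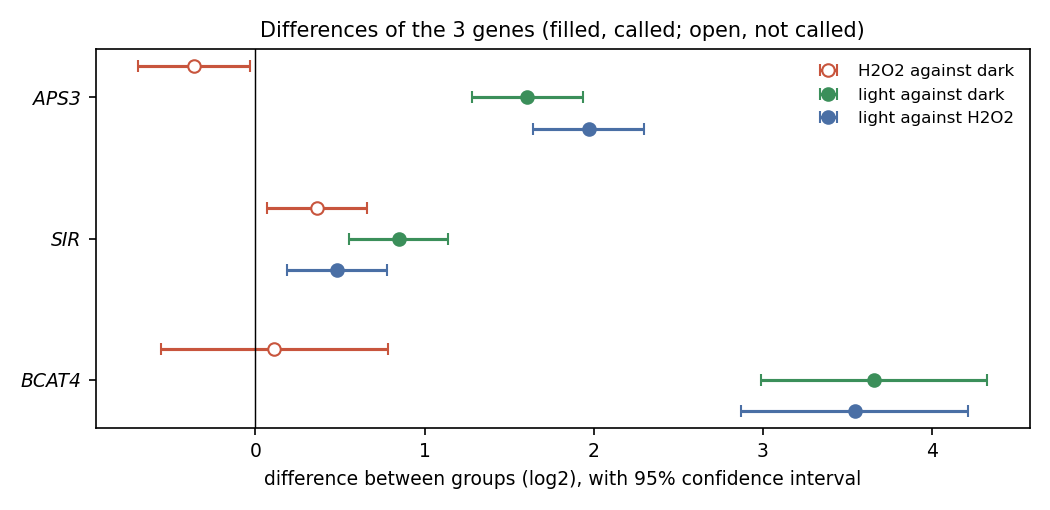
Difference between groups (log2, x axis) for APS3, SIR and BCAT4 with the 95% confidence interval of the limma fit before adjustment for multiple tests, for the 3 comparisons by colour. Filled points were called at an adjusted p under 0.05 and open points were not. Points for light lie right of 0 for each gene, from 0.48 to 3.66, and the 3 open points for H2O2 against dark lie no farther than 0.36 from 0.

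**Figure D3:**
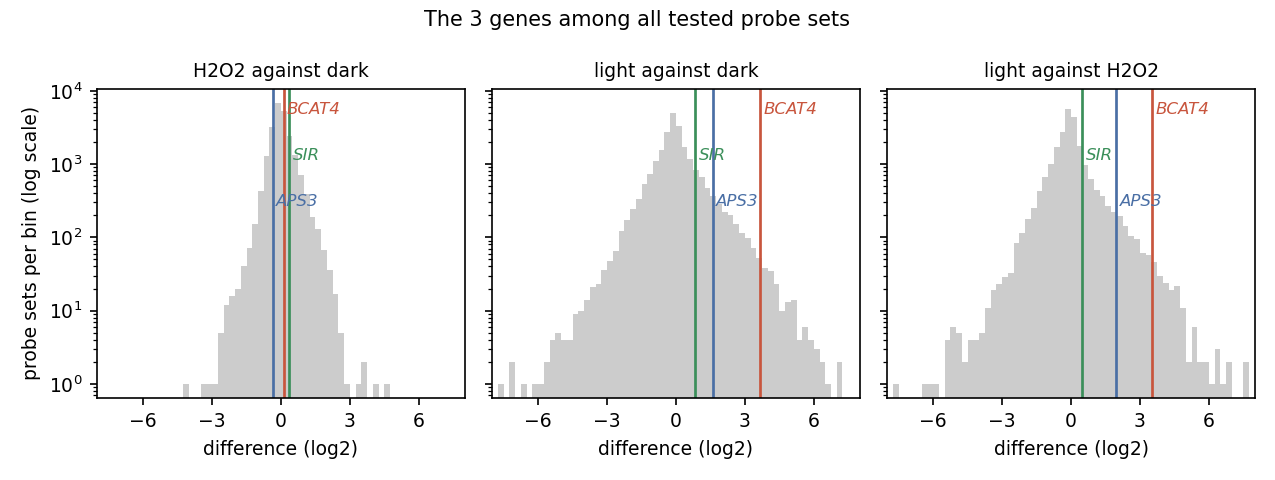
Distribution of log2 differences over all 22746 tested probe sets (x axis, bins of equal width; y axis, number of probe sets on a log scale) for each comparison, with APS3, SIR and BCAT4 as vertical lines. The 3 lines lie inside the bulk for H2O2 against dark, and BCAT4 lies far into the right tail in both comparisons with light.

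A ratio of 2 genes taken within each array is not moved by any shift of a whole array. The log2 ratio of APS3 to SIR, set against its dark mean, was -0.64 and -0.82 on the H2O2 arrays, and 0.72 and 0.80 on the light arrays, with the dark replicates 0.0092 to either side. APS3 thus stood lower relative to SIR with H2O2 and higher in light, and the 3 groups did not overlap. The mean ratio to dark was -0.73 with H2O2 and 0.76 in light, against an SD (n = 2) of 0.013 among dark, 0.13 among H2O2 and 0.052 among light arrays. With 2 arrays against 2 the smallest p an exact 2-sided permutation test can give is 0.333, so no test was made of these ratios, which were added after the values were seen.

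In light the log2 ratio of APS3 to BCAT4, set against its dark mean, was -2.09 and -2.01, and that of SIR to BCAT4 was -2.81 and -2.80. On the dark arrays these ratios spread by 0.37 and 0.38 to either side. The H2O2 arrays had -0.69 and -0.26 for the former, the first outside the dark range and the second inside it. For SIR to BCAT4 they had -0.055 and 0.56, again 1 inside and 1 outside. Light thus lay apart for both ratios, and dark and H2O2 did not separate.

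**Figure D4:**
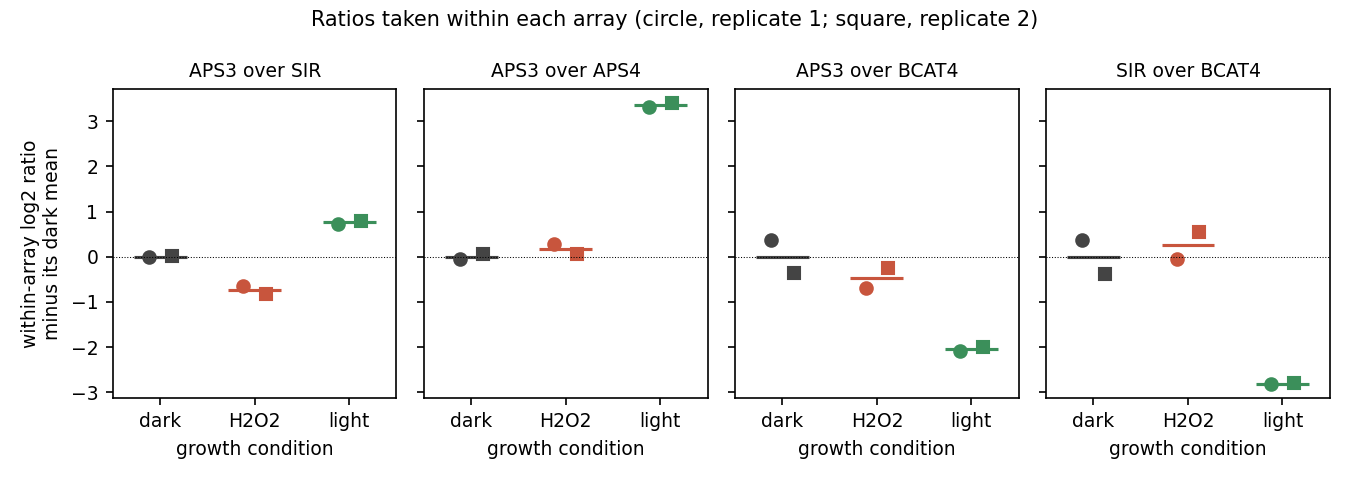
Log2 ratio of a pair of genes within each array, minus the mean of the 2 dark arrays (y axis), by growth condition (x axis). Circles are replicate 1, squares replicate 2 and lines group means. APS3 over SIR separates all 3 conditions, at -0.73 with H2O2 and 0.76 in light, and APS3 over APS4 stands at 3.37 in light.

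Of 111 genes on lists of sulfur uptake and assimilation, glucosinolates and branched-chain aminotransferases, 16 have a probe set of their own here, APS3, SIR and BCAT4 among them. No gene of the lists for sulfate transport, APS kinase and APS reductase, cysteine synthesis, glutathione synthesis, glucosinolate transcription factors or glucosinolate breakdown is among the 16, and these steps are not analysed here. Of the other 13, limma called 8 higher and 2 lower in light than in the dark, at a median difference of 0.62 beside -0.064 for all probe sets, of which 23.0% were called higher and 25.0% lower. With H2O2 none was called higher and 2 lower, at a median of -0.0032 beside -0.022. Of all probe sets 12.3% were called higher and 8.18% lower there. The 13 genes are too few to set these counts apart from that background. Between light and H2O2, 6 were higher and 2 lower, beside 17.4% and 22.0% of all probe sets.

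APS4, another ATP sulfurylase gene, differed from APS3 in its direction in light. Its level was 11.05 and 11.09 in the dark replicates, 10.55 and 10.51 with H2O2, and 9.28 and 9.33 in light, so that the groups did not overlap and stood in the order of light, H2O2 and dark from low to high. APS4 was lower in light than in the dark by -1.76 ± 0.12 on the log2 scale (SE, limma adjusted p = 4.46e-06), where APS3 was higher. It was also lower in light than with H2O2, at -1.22 ± 0.12 (adjusted p = 5.74e-05). With H2O2 it fell by 0.54 ± 0.12 (adjusted p = 0.0168), on the same side of 0 as the -0.36 of APS3, which was not called. This was a call that did not hold without dark replicate 1, dark replicate 2, H2O2 replicate 1 or H2O2 replicate 2 (adjusted p 0.0581 to 0.0913). Centring on the hybridisation controls gave 0.052 with H2O2, and -0.88 in light, not called there (adjusted p = 0.0958), and ended the call between light and H2O2 (0.177).

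Within each array the log2 ratio of APS3 to APS4 stood at 3.33 and 3.41 above its dark mean in light, and at 0.28 and 0.071 with H2O2. The dark replicates lay 0.057 to either side. The ratio of both ATP sulfurylase transcripts therefore separated light from the other conditions by far more than its spread, with H2O2 close to dark. Of the 4 listed ATP sulfurylase genes, only these 2 have a named probe set of their own here.

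SIRB encodes the ferrochelatase that finishes siroheme, the cofactor of sulfite reductase. It had 7.96 and 7.92 in the dark, 7.50 and 7.67 with H2O2 and 8.31 and 8.05 in light, so it was lowest with H2O2, where SIR was between dark and light. The difference of SIRB was called only between light and H2O2, at 0.59 ± 0.14 (SE, limma adjusted p = 0.00966), and this call ended without H2O2 replicate 1 (0.0733), without light replicate 1 (0.0634) and with centring on the hybridisation controls (0.214). Against dark, H2O2 had -0.35 ± 0.14 (adjusted p = 0.123; 0.0389 with median centring, called lower) and light 0.24 ± 0.14 (adjusted p = 0.213; 0.0337 with centring on the hybridisation controls, called higher).

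CBL encodes cystathionine beta-lyase, which makes the precursor of methionine, the amino acid on which BCAT4 acts. It was higher in light than in the dark by 0.41 ± 0.13 (SE, limma adjusted p = 0.03), and this ended without dark replicate 2 (0.163), without light replicate 1 (0.122), without light replicate 2 (0.0538) and with median centring (0.0905). Its difference with H2O2 was 0.090 ± 0.13 and was not called. AT1G04770, on the list of sulfur deficiency response genes, was higher in light than in the dark by 0.88 ± 0.14 (adjusted p = 0.000731) and than with H2O2 by 0.89 ± 0.14. The latter call ended with centring on the hybridisation controls (adjusted p = 0.0517). With H2O2 against dark AT1G04770 had -0.00215 ± 0.14. BGLU28, a beta-glucosidase gene on the same list, was dim in every group, at 4.73, 4.29 and 4.29 in dark, H2O2 and light, and was not called in any comparison.

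The 3 measured genes of the glucosinolate core pathway, of 17 listed, were all called higher in light than in the dark and than with H2O2. Of all probe sets, 23.0% and 17.4% were called higher there. UGT74B1, which adds the glucose, had 7.53 and 7.32 in the dark, 7.64 and 7.65 with H2O2, and 9.11 and 9.0 in light. Its difference in light against dark was 1.63 ± 0.14 (SE, limma adjusted p = 1.2e-05). AT2G31790, on the same list, had 5.84 and 6.22 in the dark, 6.28 and 5.77 with H2O2, and 9.13 and 9.19 in light, a difference of 3.14 ± 0.20 (adjusted p = 2.11e-06). UGT74B1 and AT2G31790 were not called with H2O2, at 0.22 ± 0.14 and -0.0032 ± 0.20.

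GSTU20, a glutathione S-transferase gene assigned to the aliphatic core pathway, was higher in light than in the dark by 3.13 ± 0.34 (SE, limma adjusted p = 5.67e-05) and than with H2O2 by 4.56 ± 0.34. It had 8.26 and 8.39 in the dark, 7.55 and 6.24 with H2O2, and 11.44 and 11.48 in light. With H2O2 it fell by 1.43 ± 0.34 (adjusted p = 0.0176), while BCAT4 was not called. The value was -2.08 without H2O2 replicate 1 and -0.78 without H2O2 replicate 2, called in both cases. The call ended without dark replicate 1 (0.0594), without dark replicate 2 (0.0916), with an intensity trend and robust eBayes (0.115) and with centring on the hybridisation controls (0.232).

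GTR1 and GTR2 encode transporters that move glucosinolates between organs. GTR1 had 6.32 and 6.53 in the dark, 6.72 and 5.90 with H2O2, and 8.16 and 8.14 in light, and was higher in light than in the dark by 1.72 ± 0.24 (SE, limma adjusted p = 0.000271). GTR2 had 8.60 and 8.63, 8.78 and 8.44, and 7.97 and 7.89, and was lower in light by -0.68 ± 0.15 (adjusted p = 0.00425), while the hybridisation controls as centre gave 0.198, not called (0.706). The log2 ratio of GTR1 to GTR2 within each array set against its dark mean was 2.38 and 2.43 in light, and 0.123 and -0.357 with H2O2. GTR1 thus stood higher relative to GTR2 on both light arrays, by more than the spread of the dark and H2O2 arrays.

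AOP3, of glucosinolate side-chain modification, was dim in every group. It had 3.56 and 5.91 on the light arrays against 4.06 to 4.15 on the 4 others, so both light arrays stood apart, 1 below and 1 above the others, and the difference of 0.62 ± 0.57 in light against dark was not called (limma adjusted p = 0.422). It turned to -0.56 without light replicate 2 and was 1.79 without light replicate 1, called in each case (adjusted p = 0.0208 and 4.87e-05). Centring on the hybridisation controls gave a called difference of 1.499 (0.00315). That call rests on the SE of 0.44 shared by the genes under this centring, and not on the distance between the 2 light arrays of AOP3.

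BCAT4 belongs to a family of branched-chain aminotransferases, most of which handle leucine, isoleucine and valine. Of 7 listed, 3 were measured and all 3 were called higher in light than in the dark, beside 23.0% of all probe sets. BCAT4, 1 of these 3, was higher by 3.66 log2 units. ATBCAT-5 had 7.29 and 6.81 in the dark, 7.55 and 7.50 with H2O2 and 7.80 and 7.70 in light, a difference of 0.70 ± 0.17 in light (SE, limma adjusted p = 0.00766; 0.0566 without dark replicate 2). With H2O2 it had 0.47 ± 0.17 (adjusted p = 0.085), which was 0.71 and called higher without dark replicate 1 (0.0278), and 0.23 without dark replicate 2 (0.44). AT1G50110 had a difference of 0.49 ± 0.15 in light (adjusted p = 0.0209), from a dim level in the dark, and its call ended with median centring (0.0636), with quantile normalization (0.0713), without dark replicate 2 (0.136) and without light replicate 2 (0.109). BCAT4 was the only one of the 3 called between light and H2O2, where 39.5% of all probe sets were called either way. Whether BCAT4 differs from the others there was not tested.

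**Figure D5:**
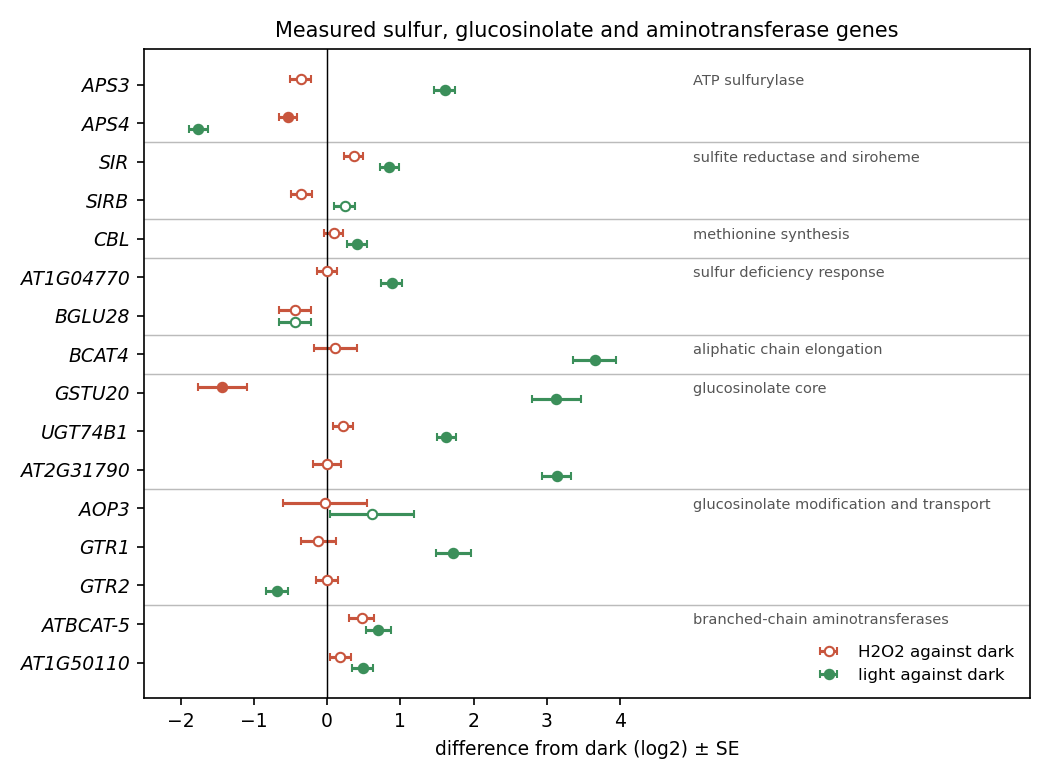
Difference from dark (log2, x axis, ± SE of the limma fit) for the 16 measured genes of the lists, grouped by list, with H2O2 and light by colour. Filled points were called and open points were not. Light points reach from -1.76 for APS4 to 3.66 for BCAT4, and filled H2O2 points are those of APS4 and GSTU20, both left of 0.

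BCAT4 and some, but not all, of the measured glucosinolate genes had replicates far apart with H2O2. Between the H2O2 replicates, replicate 1 minus replicate 2 was 0.68 for BCAT4, 1.31 for GSTU20, 0.82 for GTR1 and 0.50 for AT2G31790, but -0.0072 for UGT74B1. Farther apart than these in the H2O2 group lay 1.11%, 0.106%, 0.448% and 4.12% of all probe sets for the first 4 genes. GTR2 had 0.34 and AOP3 -0.054, with 13.6% and 80.4% farther apart. Wide spread was not limited to glucosinolate genes, with 1.57 for PAP85 and 0.59 for BGLU28 (0.0352% and 2.15% farther apart). In the dark replicate 2 was the higher, with -0.90 for BCAT4, -0.38 for AT2G31790, -0.21 for GTR1 and -0.13 for GSTU20. UGT74B1 had 0.21. There 0.721%, 11.9%, 35.1% and 55.9% of all probe sets lay farther apart than BCAT4, AT2G31790, GTR1 and GSTU20, so the wide spread in the dark was that of BCAT4, and GTR1 and GSTU20 were within the ordinary range. In light BCAT4, GSTU20, GTR1, AT2G31790 and UGT74B1 had replicates no more than 0.11 apart. The replicates of APS3 were at most 0.25 apart in any group and those of SIR at most 0.14.

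The genes most alike in pattern were found by the root mean square difference from each member over the 6 arrays, after each probe set was centred on its own mean. Nearest to APS3 were AT5G16010 at 0.040, AT1G33600 at 0.069, AT1G54500 at 0.073, AT2G33255 at 0.075 and AT1G66430 at 0.096 log2 units, with Pearson r of 0.995 to 0.999 over 6 arrays. The nearest to SIR were AT5G17530 at 0.027, AT5G28220 at 0.047, AT3G15460 at 0.055, AT2G04360 at 0.057 and EX1, a gene of singlet oxygen signalling in plastids, at 0.060, with r of 0.987 to 0.9998. Nearest to BCAT4 were AT3G21670 at 0.19, AT5G44400 at 0.21, AT2G32640 at 0.22, AT1G26220 at 0.23 and AT2G39850 at 0.24, with r of 0.991 to 0.996. None of these genes is on the lists above. These arrays share their 3 conditions, and the nearest genes changed with the arrays used. Without 1 array, 3 to 4 of the 5 remained nearest to APS3, 1 to 2 to SIR and 1 to 4 to BCAT4.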

How the data were processed

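The authors deposited 1 table of log2 expression values for 22810 probe sets on 6 1-colour ATH1 arrays. The submitters' processing notes name RMA and limma, without versions or roles, and the sources used here give neither the chip definition nor probe-level settings. The log2 scale is inferred from the range of 2.22 to 14.23. Arrays have no counts, so their number limits the precision.

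The 64 control probe sets were set aside, and 22746 were tested without a filter, with lmFit and eBayes of limma 3.58.1 under R 4.3.3 (3 groups of 2 arrays, 3 residual and 5.84 prior degrees of freedom), 2-sided, with Benjamini-Hochberg adjustment within each comparison. Groups and replicate numbers came from the titles. Names came from the platform's annotation, updated through RefSeq gene identifiers (TAIR10.1). Of tested probe sets, 13513 name 1 gene, 503 several, and 8730 are unnamed here. A gene with several probe sets is represented by its probe set of highest mean level. No coordinates are given, since no build is named, and no sequences were used here.

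The rule for naming genes took APS3, SIR and BCAT4, every measured gene of 14 pathway lists, and the 5 genes most alike to each of the 3. Members and lists were chosen with earlier results of these data known. The fits were tested on simulated data. Alternatives covered scaling, a filter on dim probe sets, the spread estimate, the arrays fitted, a replicate block and each array left out.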

Additional observations from a re-analysis of the deposited data

How the results depend on the processing

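For APS3, SIR and BCAT4 in the 3 comparisons, 58 values under other settings kept their direction and their side of the threshold, 2 turned, 2 gained a call and 1 lost it. With 1 array left out 50 kept both, 2 turned and 2 lost their call. Many of these values could not turn. Leaving out an array of the group not compared leaves a difference as it was. So do the filter on dim probe sets, the other spread estimate, the fit to the 4 arrays compared and the replicate block. In those settings only a call could change. The light against dark calls of all 3 genes, and those of APS3 and BCAT4 between light and H2O2, held in every setting run. With the arrays centred on the median of all probe sets, H2O2 against dark gave -0.48 for APS3 (called), -0.0084 for BCAT4 and -0.032 for CBL, and with quantile normalization -0.49 for APS3 (called) and 0.024 for GTR2, with -0.026 for BGLU28 between light and H2O2. With centring on the hybridisation controls, H2O2 against dark gave 0.23 for APS3, 0.052 for APS4, 0.24 for SIRB, 0.587 for AT1G04770, 0.15 for BGLU28, 0.586 for AT2G31790, 0.56 for AOP3, 0.47 for GTR1 and 0.5867 for GTR2, light against dark 0.44 for BGLU28 and 0.198 for GTR2, and light against H2O2 0.78 for SIR, not called. That centring moved the median of all probe sets to 0.57, 0.82 and 0.23 in H2O2 against dark, light against dark and light against H2O2, from -0.022, -0.064 and -0.058, and median centring moved it to -0.14, -0.17 and -0.046. Higher calls were 60.0%, 48.0% and 44.2% of all calls as deposited, 97.5%, 92.4% and 74.6% with hybridisation control centring, and 39.3%, 40.1% and 45.2% with median centring. Called probe sets numbered 2000 of 22746 for H2O2 against dark and 3172 for light against H2O2 with hybridisation control centring, against 4656 and 8981. Either centring adds the same amount to every probe set within a comparison, and the directions that turned under it follow from that amount. The amount is set by the array medians or by the control means. These means were 9.82 and 10.45 in the dark, 9.59 and 9.50 with H2O2, and 8.89 and 9.62 in light. Why the control means differ between arrays was not tested.

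With 1 array left out, where the lone array left in a group is assumed to vary like the others, calls for H2O2 against dark ranged from 2135 to 4949 (2306 without dark replicate 2, 2173 without H2O2 replicate 1, 2135 without H2O2 replicate 2). For H2O2 against dark BCAT4 ranged from -0.34 to 0.56, AT1G04770 from -0.10 to 0.099, AT2G31790 from -0.25 to 0.25, AOP3 from -0.063 to 0.0029, GTR1 from -0.53 to 0.29 and GTR2 from -0.17 to 0.17. AOP3 ranged from -0.56 to 1.79 in light against dark and from -0.53 to 1.82 in light against H2O2, where SIR ranged from 0.45 to 0.52 and BGLU28 from -0.29 to 0.29. With H2O2 the log2 ratio of SIR to BCAT4 ranged from -0.13 to 0.63 and that of GTR1 to GTR2 from -0.36 to 0.123. Under quantile normalization the ratio of APS3 to SIR was -0.90 with H2O2 and 0.65 in light, and that of APS3 to APS4 0.00165 and 3.29. Of the 5 genes most alike to SIR, 1 was shared with those found after quantile normalization.

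With the replicate number as a replicate block, 4590, 10905 and 8972 probe sets were called for H2O2 against dark, light against dark and light against H2O2, against 4656, 10920 and 8981, and no call of a named gene changed. Deviations of same-numbered arrays correlated weakly across probe sets, at -0.032, 0.069 and -0.0019. The titles do not say whether same-numbered arrays have more than the number in common. Other probe sets of a gene gave no value for APS3, SIR and BCAT4, which have 1 each.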
